A study of Mus musculus with 2 samples.

Results

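The 10 genes described here mark or make dendritic cells: Itgax, Flt3, Zbtb46, Clec9a, Batf3, Irf8 and Cd209a for conventional dendritic cells, and Siglech, Bst2 and Tcf4 for plasmacytoid dendritic cells. They were taken by symbol from gene tables with 43346 Ensembl gene rows, and 10 of 10 were found once in each library. The RNA, selected for poly(A) tails, came from 1 spleen of a male C57BL/6J mouse that was 10 weeks old, and was read from 2 libraries, technical replicate 2 and technical replicate 1 of biological replicate 1. Per the labels, replicate 2 was made in May 2015 and is absent from an earlier publication of the study. Both libraries share the mouse, the extraction kit (RNeasy Lipid Tissue Mini Kit) and a size range of 350 to 450, given with no unit. No treatment, mutation or second animal is labelled, so the comparison is replicate 2 over replicate 1, with 1 library on each side and no replicate check.

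Dendritic cells are the antigen-presenting cells that take up material, display it to T cells and start immune responses. In the spleen the conventional type 1 cells (cDC1) depend on Irf8 and Batf3 and present antigen from dead cells to CD8+ T cells, the type 2 cells (cDC2) present mainly to CD4+ T cells, and plasmacytoid cells (pDC) depend on Tcf4 and release type I interferon when they sense viral nucleic acid. Flt3 is the receptor of the growth factor that sustains both branches. Dendritic cells are a minority of spleen cells, and several of the 10 genes are also used elsewhere: Irf8 and Tcf4 in B cells, Itgax in some macrophages, and Bst2 in many cells exposed to interferon. In a bulk tissue library fewer cells of a type and less RNA per cell cannot be told apart.

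Gene rows summed to 3806381 expected counts for replicate 2 and 27528824 for replicate 1, which was 7.23 times deeper. The libraries stood far apart: of 12467 genes with a mean TPM (an abundance scaled for transcript length, with the same total in each library) of at least 1 and at least 50 counts, 28% were higher and 32.6% lower in replicate 2. A gene is called here when the exact 95% counting interval of its ratio lies wholly beyond 1.5-fold, after TMM scaling, which sets library sizes from the bulk of the genes. TMM raised each log2 ratio by 1.26 against total counts, and the median of the tested genes was -0.27 under TMM and -1.53 under total counts. The 8 erythroid marker genes held 442738 TPM in replicate 2, against 43065 TPM in replicate 1, and their part in any result below was not tested. Spleen B cell markers reached 1 TPM in both libraries for 8 of 8 genes. Intervals cover counting error only.

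The upstream sequences of the genes that the results turn on most are shown first. Bst2 and Batf3 were the members higher in replicate 2, and Itgax was lower. Irf8 changed its deposited split between a pair of transcripts that differ in both start and end. Each run is the 250 bases before a RefSeq start site (build GRCm38.p6), written 5′ to 3′ on the strand of the gene. The last 89 bases of the Batf3 run lie inside Batf3-201, its main transcript in replicate 2, because that transcript starts upstream of the RefSeq site. Capitals mark matches to GAAANNGAA, the core of the interferon-stimulated response element, in Bst2, and to TGANTCA, the AP-1 pattern that Batf and Jun proteins bind, in Itgax. The Bst2 window is chr8:71537473-71537722 on the minus strand. The Batf3 window is chr1:191098164-191098413 on the plus strand. The windows of Irf8 are chr8:120736108-120736357 for the upstream site and chr8:120738389-120738638 for the downstream site, both on the plus strand. The Itgax window is chr7:128129300-128129549 on the plus strand.
Bst2: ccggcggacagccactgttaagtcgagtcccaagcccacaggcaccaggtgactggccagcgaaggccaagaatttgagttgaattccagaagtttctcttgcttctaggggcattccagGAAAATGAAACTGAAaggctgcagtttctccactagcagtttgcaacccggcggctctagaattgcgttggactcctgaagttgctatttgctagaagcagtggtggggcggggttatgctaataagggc
Batf3: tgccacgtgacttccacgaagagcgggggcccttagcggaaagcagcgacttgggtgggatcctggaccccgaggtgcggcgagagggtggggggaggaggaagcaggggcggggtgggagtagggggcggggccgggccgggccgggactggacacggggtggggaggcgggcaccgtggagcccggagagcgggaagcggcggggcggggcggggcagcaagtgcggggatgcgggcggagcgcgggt
Irf8 upstream start: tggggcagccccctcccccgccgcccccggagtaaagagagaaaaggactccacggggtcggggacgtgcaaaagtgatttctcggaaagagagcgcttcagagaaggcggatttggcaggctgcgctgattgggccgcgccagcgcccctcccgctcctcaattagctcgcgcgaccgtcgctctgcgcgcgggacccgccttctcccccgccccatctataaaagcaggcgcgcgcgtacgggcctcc
Irf8 downstream start: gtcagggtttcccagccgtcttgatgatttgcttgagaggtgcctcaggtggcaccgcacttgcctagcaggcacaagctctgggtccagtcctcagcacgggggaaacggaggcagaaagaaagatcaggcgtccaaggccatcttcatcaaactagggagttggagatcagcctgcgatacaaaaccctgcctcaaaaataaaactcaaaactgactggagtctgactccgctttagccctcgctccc
Itgax: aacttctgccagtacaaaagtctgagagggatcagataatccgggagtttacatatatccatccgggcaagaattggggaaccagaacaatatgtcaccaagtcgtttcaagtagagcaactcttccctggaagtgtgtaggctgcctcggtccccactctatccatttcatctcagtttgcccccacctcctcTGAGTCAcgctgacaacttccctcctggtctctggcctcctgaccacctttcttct

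Bst2 held 2 overlapping matches to GAAANNGAA, at -130 to -122 and -124 to -116 from the start site, and it was the 1 window of the members' 10 with this motif. Among 32851 RefSeq promoter windows of the same length, 7.13% held it, with both strands searched. TGANTCA was found in 2 of the 10 windows, as TGAGTCA at -56 to -50 in Itgax and as TGACTCA at -61 to -55 in Zbtb46, against 6.75% of all windows. The window of Zbtb46 lies before the start of Zbtb46-205, which held 0 expected counts in both libraries, so it is not shown. GGAA, the core of the ETS family to which PU.1 belongs, was in 9 of the 10 windows and in 93.4% of all windows; in Bst2 one of its matches overlaps GAAANNGAA. The 10 windows belong to 9 genes, since Irf8 has a pair of RefSeq start sites. They ranged in GC content between 35.6% in Clec9a and 76% in Batf3, with a median of 52.4% over all windows. A match is a description of letters, not of binding.

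Bst2 was the most abundant of the 10 genes in replicate 2 and the third in replicate 1, while Batf3 was the second in replicate 2 and the last in replicate 1. The other 8 genes were each at a lower TPM in replicate 2. Together the 10 genes made up 635.29 TPM in replicate 2, against 501.17 TPM in replicate 1. Bst2 alone was 82.8% of that sum in replicate 2 and 12.6% in replicate 1, and the 9 genes without Bst2 made up 109.55 TPM in replicate 2, against 438.25 TPM in replicate 1. All 10 reached 1 TPM in both libraries. At 5 TPM or more, 6 of the 10 remained in replicate 2.

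**Figure D1:**
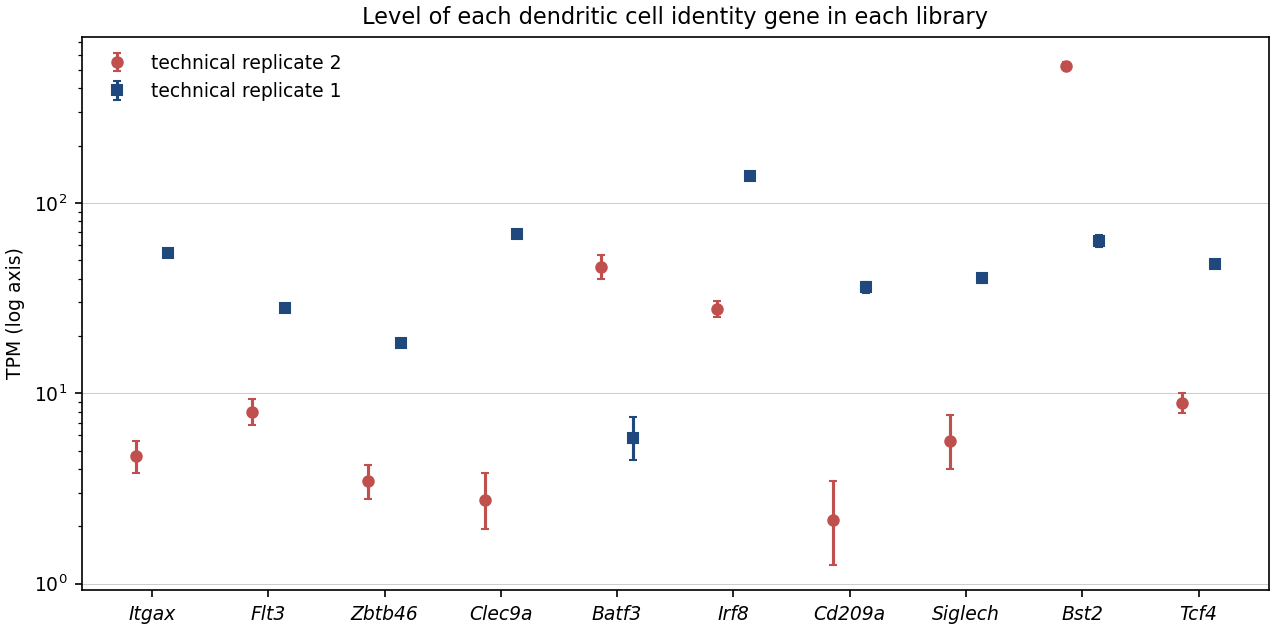
TPM of the 10 genes on a log axis, with technical replicate 2 as circles on the left and technical replicate 1 as squares on the right of each gene; bars are exact 95% Poisson intervals of the count carried to TPM. Bst2 and Batf3 sit higher in replicate 2 (525.74 and 46.26 TPM) than in replicate 1 (62.92 and 5.84 TPM), and the other 8 genes sit lower.

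Among the surface receptors, Itgax encodes CD11c, the integrin chain used to sort mouse dendritic cells (ENSMUSG00000030789.8, chr7:128129547-128150657, plus strand, GRCm38). It had 107 counts and 4.66 TPM (95% counting interval 3.82 to 5.63) in replicate 2, against 4031 counts and 54.65 TPM (53.0 to 56.4) in replicate 1. Its TMM log2 ratio was -1.12 (-1.41 to -0.84), a 2.17-fold lower scaled count in replicate 2. The call held under TMM, DESeq2 and total count scaling. The upstream window of Itgax is the one printed above with the TGAGTCA match.

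Flt3, the receptor for the dendritic cell growth factor Flt3 ligand (ENSMUSG00000042817.13, chr5:147330741-147400489, minus strand), had 166 counts and 8.00 TPM (6.83 to 9.31) in replicate 2, against 1876 counts and 27.96 TPM (26.7 to 29.3) in replicate 1. Its TMM log2 ratio was 0.62 (0.38 to 0.85), which did not reach the call, and it was -0.64 under total counts. So Flt3 took a smaller part of the reads of replicate 2, yet sat above the typical tested gene.

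Clec9a encodes the receptor by which cDC1 recognise the exposed actin of dead cells (ENSMUSG00000046080.13, chr6:129408862-129424763, plus strand). It had 36 counts and 2.75 TPM (1.93 to 3.81) in replicate 2, against 2810 counts and 68.91 TPM (66.4 to 71.5) in replicate 1. With a TMM log2 ratio of -2.17 (-2.69 to -1.70), 4.50-fold lower in replicate 2, it was the lowest ratio of the 10. By level Clec9a was the ninth of the 10 genes in replicate 2 and the second in replicate 1. The gene overlaps Clec1b, a neighbouring lectin gene, over 474 bases on the same strand. Clec1b held 72 counts in replicate 2 and 617 in replicate 1.

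Cd209a is the mouse DC-SIGN gene, a sugar-binding receptor of cDC2 and monocyte-derived cells (ENSMUSG00000031494.6, chr8:3743397-3748984, minus strand). It had 17 counts and 2.15 TPM (1.25 to 3.44) in replicate 2, against 889 counts and 35.92 TPM (33.6 to 38.4) in replicate 1. The TMM log2 ratio was -1.59 (-2.38 to -0.90), 3.01-fold lower in replicate 2. It had the fewest counts of the 10 in replicate 2, and its interval is the widest.

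Of the transcription factors of conventional cells, Zbtb46 is the one that separates them from other myeloid cells (ENSMUSG00000027583.9, chr2:181387762-181459426, minus strand). It had 96 counts and 3.45 TPM (2.79 to 4.21) in replicate 2, against 1603 counts and 18.33 TPM (17.4 to 19.2) in replicate 1. Its TMM log2 ratio was 0.06 (-0.26 to 0.35), within 1.5-fold over the whole interval, and -1.21 under total counts.

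Batf3 is the partner of Irf8 that cDC1 require (ENSMUSG00000026630.5, chr1:191097847-191108945, plus strand). It had 181 counts and 46.26 TPM (39.8 to 53.5) in replicate 2, against 60 counts and 5.84 TPM (4.46 to 7.52) in replicate 1, so the shallower library held more reads of it. The TMM log2 ratio was 5.71 (5.28 to 6.16), 52.3-fold higher in replicate 2, and it was 4.45 under total counts. In TPM it was 7.92-fold higher. Clec9a, the receptor gene of the same cells, was called in the other direction under the same scaling. With the GC trend removed, Clec9a was not called (-0.997, -1.51 to -0.52), while Batf3 was still called higher (3.17).

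Irf8, which cDC1 and pDC both use at high level (ENSMUSG00000041515.5, chr8:120736358-120756694, plus strand), had 419 counts and 27.78 TPM (25.2 to 30.6) in replicate 2, against 6802 counts and 138.69 TPM (135 to 142) in replicate 1. Its ratio under TMM was 0.10 on the log2 scale (-0.05 to 0.24), within 1.5-fold, and -1.17 under total counts, which is a lower call. By level Irf8 was the third of the 10 in replicate 2 and the first in replicate 1. It lies inside Gm20388, annotated as a protein-coding gene on the same strand over 20337 shared bases, which held 18 counts in replicate 2 and 811 in replicate 1.

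Of the plasmacytoid genes, Siglech encodes a sialic acid-binding receptor used to identify mouse pDC (ENSMUSG00000051504.14, chr7:55768178-55778925, plus strand). It had 39 counts and 5.63 TPM (4.0 to 7.70) in replicate 2, against 1384 counts and 40.22 TPM (38.1 to 42.4) in replicate 1. The TMM log2 ratio was -1.03 (-1.53 to -0.57), which falls just short of the call because the upper bound lies within 1.5-fold, and -2.29 under total counts, where it was called lower.

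Bst2 encodes tetherin, the PDCA-1 antigen, which resting mouse pDC display and interferon induces on many other cells (ENSMUSG00000046718.7, chr8:71534255-71537456, minus strand). It had 1943 counts and 525.74 TPM (503 to 550) in replicate 2, against 690 counts and 62.92 TPM (58.3 to 67.8) in replicate 1. Its TMM log2 ratio was 5.61 (5.48 to 5.74), 48.9-fold higher in replicate 2, and 4.35 under total counts. In TPM it was 8.36-fold higher. Across tested genes the TPM ratio (pseudocount of 1) had a median log2 of -2.10, so TPM ratios lie below TMM ratios.

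Tcf4 encodes E2-2, the factor on which pDC identity rests, and lies on chromosome 18 (ENSMUSG00000053477.11). It had 264 counts and 8.87 TPM (7.83 to 10.0) in replicate 2, against 5011 counts and 47.73 TPM (46.4 to 49.1) in replicate 1. On the log2 scale the TMM ratio was -0.13 (-0.31 to 0.05), within 1.5-fold, and -1.39 under total counts, where it was called lower.

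Counted together, 2 of the 10 genes were called higher in replicate 2 (Batf3 and Bst2), beside 28% of the tested genes, and 3 were called lower (Itgax, Clec9a and Cd209a), beside 32.6%. The shares lie near the background, so the counts show nothing particular to dendritic cell genes. The same 5 calls stood under all 3 scalings (TMM, DESeq2 and total counts), beside 14.6% of tested genes higher and 30.5% lower. Under total counts alone, 2 were higher and 7 lower. The median of the tested genes was -1.53 there, and their share called under total counts alone is not given. The median log2 ratio of the 10 was -0.04 under TMM, against -0.27 over the tested genes. The ratios of the 10 ran between -2.17 for Clec9a and 5.71 for Batf3.

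The tested genes showed a trend with GC content, with the median log2 ratio of 10 equal bins running between -1.67 in the lowest bin and 2.54 in the highest. Batf3, at 62.3% GC, fell in the highest bin, and Bst2, at 55.3%, in the ninth. Clec9a and Cd209a, at 44.2% and 44.3%, fell in the third, and Tcf4, at 42.8%, in the second. With the median of its own bin subtracted, Batf3 was at 3.17 (2.74 to 3.62) and Bst2 at 4.26 (4.13 to 4.39), both still called higher. Itgax was at -1.26 (-1.55 to -0.98), still called lower.

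Of the other genes, Zbtb46 and Siglech stayed uncalled when the bin median was subtracted, at 0.37 and -0.21. Clec9a moved to -0.997 (-1.51 to -0.52) and Cd209a to -0.42 (-1.21 to 0.27), neither of them called. Irf8, from the ninth bin, moved to -1.26 (-1.40 to -1.11) and was called lower, while Tcf4 moved to 1.18 (1.00 to 1.36) and Flt3 to 0.94 (0.70 to 1.17), both called higher. That made 4 of the 10 higher and 2 lower, beside 27.6% and 24.7% of the 12437 tested genes with a GC value.

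**Figure D2:**
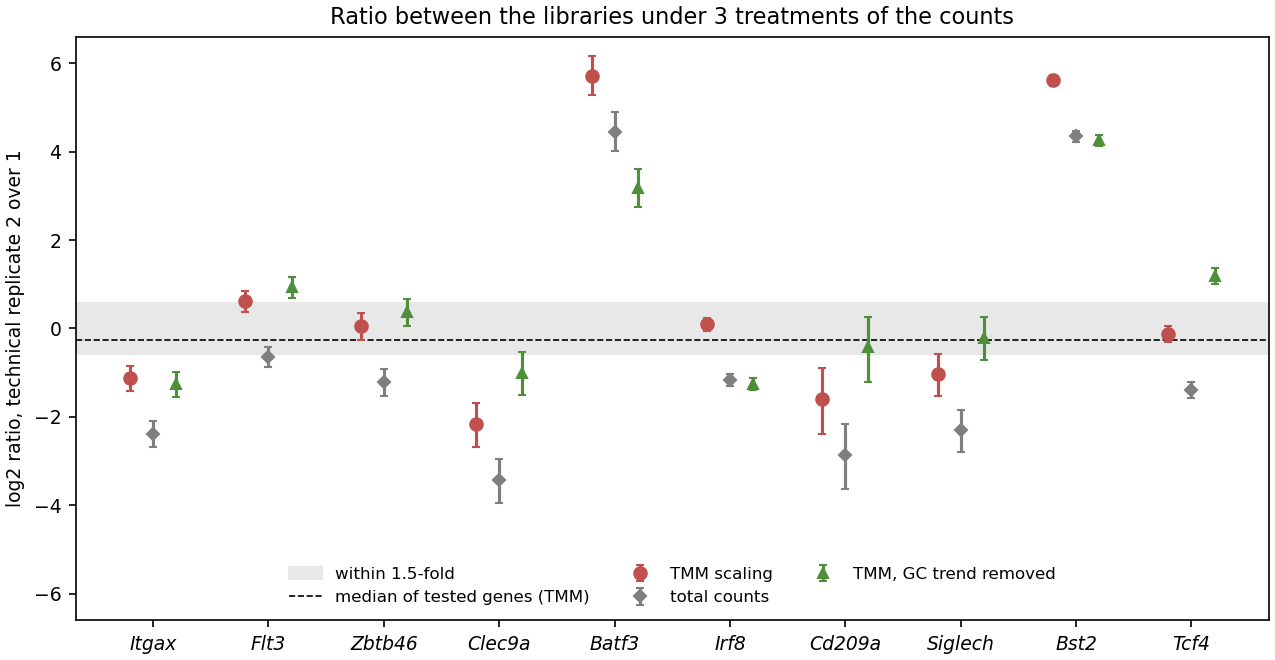
Log2 ratio of technical replicate 2 over 1 for each gene, with 95% counting intervals, under TMM scaling (circles), total counts (diamonds) and TMM with the GC trend removed (triangles); the grey band is within 1.5-fold and the dashed line is the median of tested genes under TMM, -0.27. Batf3 and Bst2 lie above the band under all 3 treatments and Itgax lies below it. The ratios of Flt3, Zbtb46, Irf8 and Tcf4 change sign between treatments.

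A ratio between a pair of genes in the same library needs no scaling, so the 45 pairs among the 10 genes were compared between the libraries. In 30 pairs the change had its whole interval beyond 1.5-fold, beside 62% of all pairs of tested genes, so the share is near the background. These included 16 of 16 pairs of Bst2 or Batf3 with another gene, and 14 of 28 pairs among the other 8. Bst2 and Batf3 were set apart because they were the 2 genes called higher. The 16 pairs therefore restate those calls and add no separate result. The ratio of a pair still carries the GC trend. With the bin medians of both genes subtracted, 30 pairs were beyond 1.5-fold, of which 25 were among those above and had the same direction. The 30 included 16 of 16 pairs of Bst2 or Batf3 with another gene and 13 of 28 among the other 8. The share of all pairs of tested genes with the GC trend removed is not given, so these counts stand without a background. The proportion of Batf3 to Bst2 differed by less than the counting error, with 0.0932 Batf3 counts per Bst2 count in replicate 2 and 0.0870 in replicate 1, a log2 change of 0.10 (-0.35 to 0.56), but with the GC trend removed it was -1.09 (-1.54 to -0.62). Between the cDC1 genes, there were 0.199 Clec9a counts per Batf3 count in replicate 2 and 46.8 in replicate 1, a log2 change of -7.88 (-8.55 to -7.21), or -4.17 with the GC trend removed.

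Within the plasmacytoid genes, there were 0.0201 Siglech counts per Bst2 count in replicate 2 and 2.01 in replicate 1, a log2 change of -6.64 (-7.16 to -6.16), or -4.47 with the GC trend removed. For the transcription factors Zbtb46 and Irf8 there were 0.229 Zbtb46 counts per Irf8 count in replicate 2 and 0.236 in replicate 1, a log2 change of -0.04 (-0.39 to 0.29), but 1.63 (1.28 to 1.96) with the GC trend removed. Irf8 over Tcf4 was 1.59 in replicate 2 and 1.36 in replicate 1, with a log2 change of 0.23 (-0.01 to 0.46), but -2.44 (-2.67 to -2.20) with the GC trend removed. Clec9a over Irf8 was 0.0859 in replicate 2 and 0.413 in replicate 1, a log2 change of -2.27 (-2.80 to -1.77), but 0.26 (-0.28 to 0.76) with the GC trend removed. The pairs share genes and are not independent of each other.

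**Figure D3:**
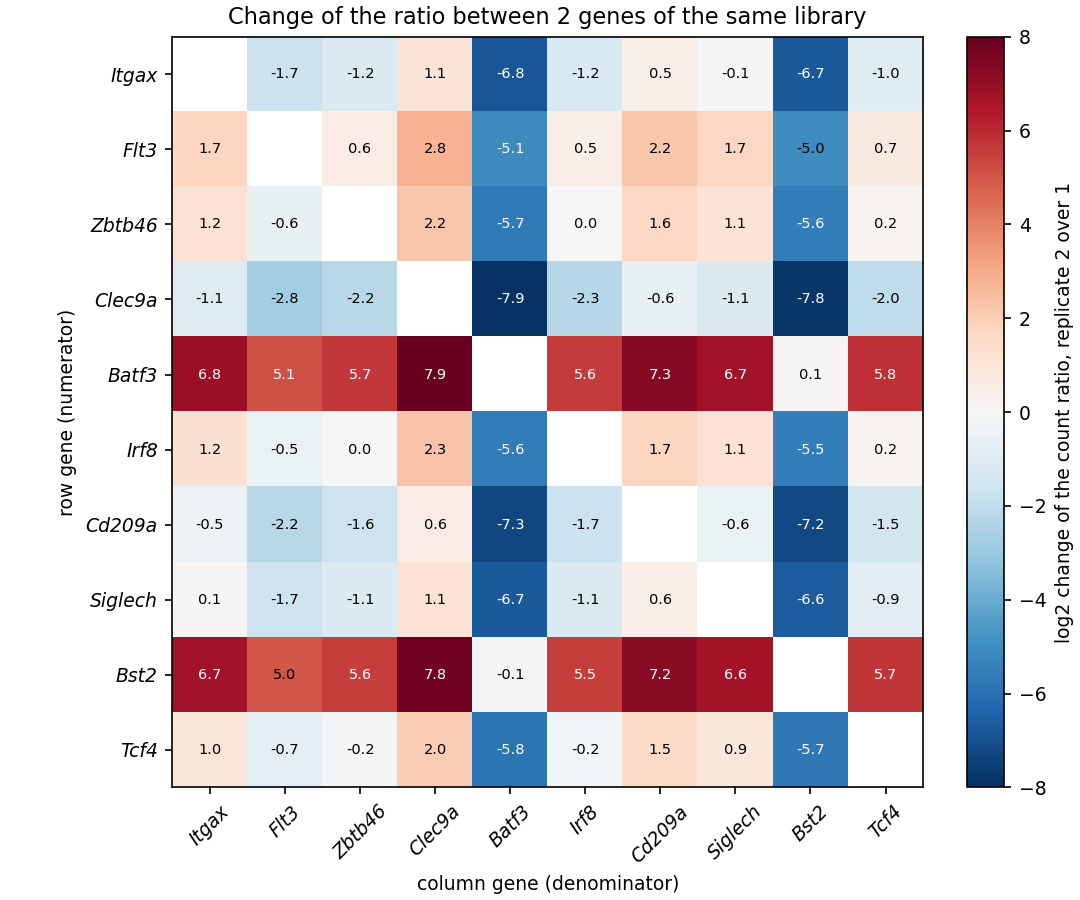
Log2 change, technical replicate 2 over 1, of the count ratio of the row gene to the column gene, for each pair of the 10 genes, with the GC trend left in. The rows of Batf3 and Bst2 are red against the other 8 genes, and their own pair is near 0 (0.10; -1.09 with the GC trend removed).

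The order of the levels differed between the libraries. In replicate 2 it was Bst2, Batf3, Irf8, Tcf4, Flt3, Siglech, Itgax, Zbtb46, Clec9a and Cd209a. Neighbours whose counting intervals of the TPM ratio include 1 were Tcf4 with Flt3, Flt3 with Siglech, Siglech with Itgax, Zbtb46 with Clec9a, and Clec9a with Cd209a. In replicate 1 it was Irf8, Clec9a, Bst2, Itgax, Tcf4, Siglech, Cd209a, Flt3, Zbtb46 and Batf3, and the 9 neighbour intervals lay above 1. Spearman's rho of the TPM values between the libraries was 0.09 over the 10 genes, given as a description.

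The deposited transcript tables divide the reads of a gene among its annotated transcripts, and IsoPct is the deposited percent of the gene's TPM held by one transcript. Of the 10 genes, 3 had a single transcript (Itgax, Cd209a and Bst2) and 7 had more. Of those 7, 5 had the same dominant transcript in both libraries, beside 57% of 8753 genes compared over the whole table. Batf3 and Siglech differed.

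Batf3-201, annotated as protein-coding, held 100% of Batf3 in replicate 2 and 21.15% in replicate 1, from 181 expected counts in replicate 2 and 14.43 in replicate 1. In replicate 1 the retained-intron transcript Batf3-202, which starts 2152 bases further downstream, held 56.42%, and Batf3-203 held 22.42%; both were at 0 expected counts in replicate 2, where the posterior mean of Batf3-201 was 175.76 counts with a posterior SD of 4.37. The TMM log2 ratio of Batf3-201 alone was 7.81 (7.03 to 8.71), against 5.71 for the gene. Most of the few Batf3 reads of replicate 1 were thus given to transcripts that are not annotated as coding.

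Irf8-201, from the upstream start, held 70.20% of Irf8 in replicate 2 and 89.06% in replicate 1. Irf8-205 is a coding transcript that starts 2281 bases downstream, at the second of the start sites shown above. The transcripts also differ in their last base, chr8:120756694 for Irf8-201 and chr8:120755581 for Irf8-205, so their split does not measure the start sites alone. Irf8-205 held 27.41% in replicate 2 and 0.62% in replicate 1, from 95.47 expected counts in replicate 2 and 34.21 in replicate 1. Its TMM log2 ratio was 5.60 (5.02 to 6.21), while that of Irf8-201 was -0.22 (-0.39 to -0.05). The ratio of the gene, within 1.5-fold, thus combines unlike ratios of its transcripts. The deposited posterior mean of Irf8-205 in replicate 2 was 92.29 counts with a posterior SD of 11.09.

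Siglech-208, a short coding transcript, held 65.26% of Siglech in replicate 2 and 1.23% in replicate 1, from 15.06 expected counts in replicate 2 and 6.09 in replicate 1. In replicate 1 the leading transcript was Siglech-204, annotated for nonsense-mediated decay, at 34.06%. Siglech-204 was at 0 expected counts in replicate 2, but its posterior mean there was 8.14 counts with a posterior SD of 6.06. By expected counts the leading transcript of replicate 2 was Siglech-202, not Siglech-208. With 39 counts in replicate 2 the split is loose: Siglech-202 was given 21.73 expected counts, but a posterior mean of 11.23 with a posterior SD of 6.10.

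Tcf4-202, the leading transcript of Tcf4 in both libraries, held 43.76% in replicate 2 and 61.34% in replicate 1. Tcf4-203, a shorter coding transcript, held 43.14% in replicate 2 and 6.12% in replicate 1. Its 65.91 expected counts in replicate 2 had a posterior mean of 32.65 and a posterior SD of 18.74, so its share there is uncertain. By IsoPct the remaining genes kept their proportions more closely. Clec9a-201 held 59.31% in replicate 2 and 56.05% in replicate 1. With 36 counts in replicate 2 that split is loose. Clec9a-201 had 30.19 expected counts there, but a posterior mean of 19.73 with a posterior SD of 7.97. Clec9a-203, at 0 expected counts there, had a posterior mean of 10.58 with a posterior SD of 7.98. Zbtb46-201 held 83.85% in replicate 2 and 79.71% in replicate 1, and Flt3-201 held 99.31% in replicate 2 and 93.24% in replicate 1.

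**Figure D4:**
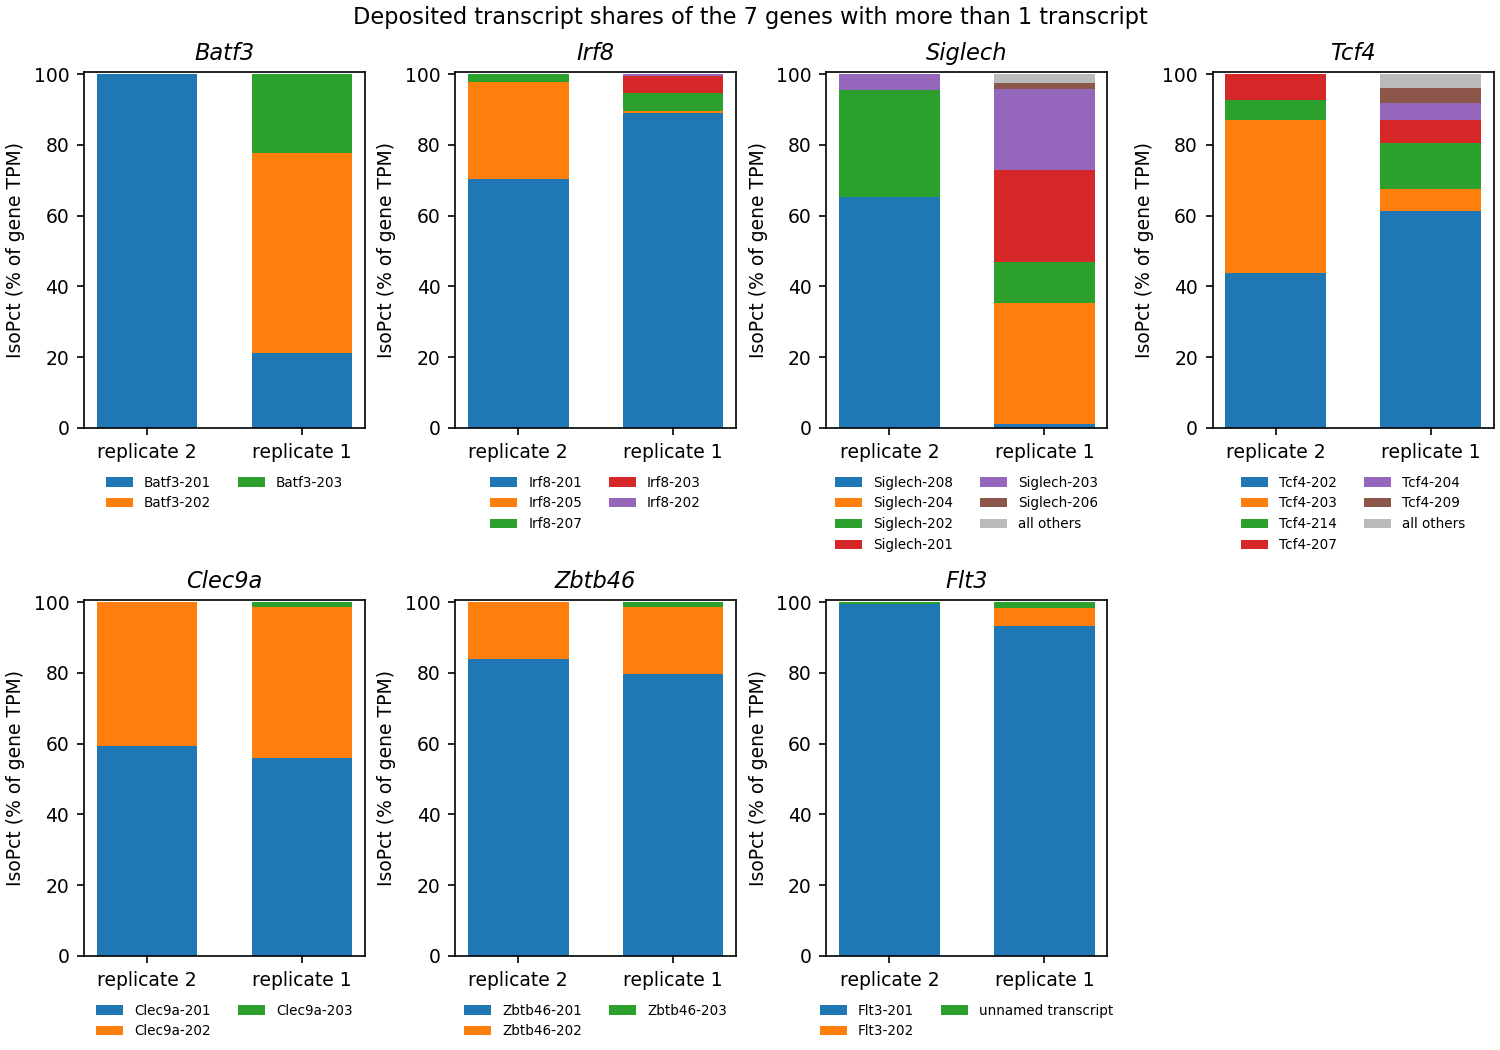
Deposited IsoPct, in percent of the gene's TPM, of the transcripts of the 7 genes with more than 1 transcript, with technical replicate 2 as the left bar and technical replicate 1 as the right bar of each panel. Batf3-201 fills the left bar and is 21.15% of the right one, and Irf8-205 is 27.41% on the left and 0.62% on the right. Clec9a shows nearly the same split by IsoPct, which rests on 36 counts on the left and is loose there.

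The wider cDC1 list held 15 further genes. Of these, 2 were higher and 4 lower in replicate 2, beside 28% and 32.6% of the tested genes. Under all 3 scalings 0 were higher and 3 lower, beside 14.6% and 30.5%. With the GC trend removed 6 were higher and 2 lower, beside 27.6% and 24.7%. The median log2 ratio was -0.28, against -0.27 over the tested genes. Naaa, a lysosomal amidase, had 30.08 TPM in replicate 2 and 76.81 TPM in replicate 1 (TMM log2 ratio 1.39), and the small GTPase gene Rab7b had a ratio of 1.35. Ifi205, an interferon-inducible gene, was lower at -1.09. Tlr11, the profilin sensor of cDC1, had 2 counts in replicate 2 and 1462 in replicate 1, a log2 ratio of -5.40 (-8.44 to -3.54). Cd24a and Id2, at -0.23 and 0.40, were not called. Naaa and Rab7b were not called under total counts, while with the GC trend removed Ifi205 moved to 0.58, not called, and Cd24a and Id2 to 1.08 and 1.71, both called higher. The list made up 189.86 TPM in replicate 2, of which Cd24a held 82.9, against 1097.55 TPM in replicate 1, of which Cd24a held 535.75.

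Of 14 tested genes of the cDC2 list, 4 were higher and 4 lower, beside 28% and 32.6%, with a median of -0.02. With the GC trend removed 2 were higher and 4 lower, beside 27.6% and 24.7%. Under all 3 scalings the counts were likewise 2 and 4, beside 14.6% and 30.5%. Ltb, the lymphotoxin beta chain, had 476.31 TPM in replicate 2 and 76.61 TPM in replicate 1 (4.64), and the Notch target Dtx1 was higher at 2.48. The Notch2 receptor gene was lower at -1.35 and Rbpj, the DNA-binding partner of Notch, at -1.58. Sirpa and Clec12a, at 0.68 and 0.42, were not called. With the GC trend removed, Dtx1 moved to -0.06 and Rbpj to -0.27, neither called, and Clec12a to 2.08, called higher. B cells also express Ltb, Dtx1 and Notch2. The list made up 591.02 TPM in replicate 2, of which Ltb held 476.31, against 585.18 TPM in replicate 1, of which Ltb held 76.61. Clec4a4 was at 0 counts in replicate 2.

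In the pDC list, 6 of 17 tested genes were higher and 4 lower, beside 28% and 32.6%, with a median of -0.01. Under all 3 scalings 3 were higher and 4 lower, beside 14.6% and 30.5%. With the GC trend removed 6 were higher and 5 lower, beside 27.6% and 24.7%. Ly6d had 630.18 TPM in replicate 2 and 187.18 TPM in replicate 1 (4.30), and Unc93b1, which carries nucleic acid sensors to endosomes, was higher at 1.46 under TMM, uncalled at 0.20 under total counts and called lower at -1.07 with the GC trend removed. Spib, an ETS factor of pDC and B cells, was lower at -1.50. The RNA sensor Tlr7 had 16 counts in replicate 2 and 2662 in replicate 1 (-3.26), and Ly6c2 and Bcl11a, at -1.02 and 0.10, were not called, though Bcl11a was called higher at 0.93 with the GC trend removed. The DNA sensor Tlr9, named after its values were seen, had 0 counts in replicate 2 and 1512 in replicate 1. Ccr9 and Cox6a2 were also at 0 counts in replicate 2. The list made up 888.38 TPM in replicate 2, of which Ly6d held 630.18, against 1058.53 TPM in replicate 1, of which Ly6d held 187.18.

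The list of growth factor signalling and development had the lowest median of the 5 lists, with 9 of 14 tested genes lower (background 32.6%), 4 higher (background 28%) and a median of -2.30. Under all 3 scalings 9 were lower (background 30.5%) and 1 higher (background 14.6%). With the GC trend removed 9 were lower (background 24.7%) and 3 higher (background 27.6%). Ikzf1, the Ikaros factor, had 5.79 TPM in replicate 2 and 173.03 TPM in replicate 1 (-2.43), and Csf1r, the receptor of macrophage colony-stimulating factor, was lower at -1.15. Stat3, which acts downstream of Flt3, was higher at 1.77, and Spi1, which encodes PU.1, at 1.68; under total counts neither was called. Gfi1, with 3 counts in replicate 2 and 167 in replicate 1, had a ratio of -1.68 (-3.97 to -0.11) and was not called, but was called lower with the GC trend removed. The list made up 101.19 TPM in replicate 2, against 763.61 TPM in replicate 1.

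Among 13 tested maturation and migration genes, 2 were higher and 3 lower, beside 28% and 32.6%, with a median of 0.27. Under all 3 scalings 0 were higher and 3 lower, beside 14.6% and 30.5%. With the GC trend removed 4 were higher and 4 lower, beside 27.6% and 24.7%. Ccr7, the receptor that guides mature dendritic cells to T cell zones, had 38.99 TPM in replicate 2 and 66.08 TPM in replicate 1 (1.70), and Cd40 was higher at 1.81; under total counts neither was called (0.43 and 0.55). The costimulatory genes Cd83 and Cd86 were lower at -1.43 and -2.10. Marcks and Ly75, at 0.40 and -0.87, were not called. With the GC trend removed, Cd86 was not called (-0.79), Marcks was called higher (1.57) and Ly75 stood at 0.30. B cells express Ccr7, Cd40, Cd83 and Cd86 too. The list made up 122.51 TPM in replicate 2, against 596.7 TPM in replicate 1, and Nudt17 was at 0 counts in replicate 2.

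**Figure D5:**
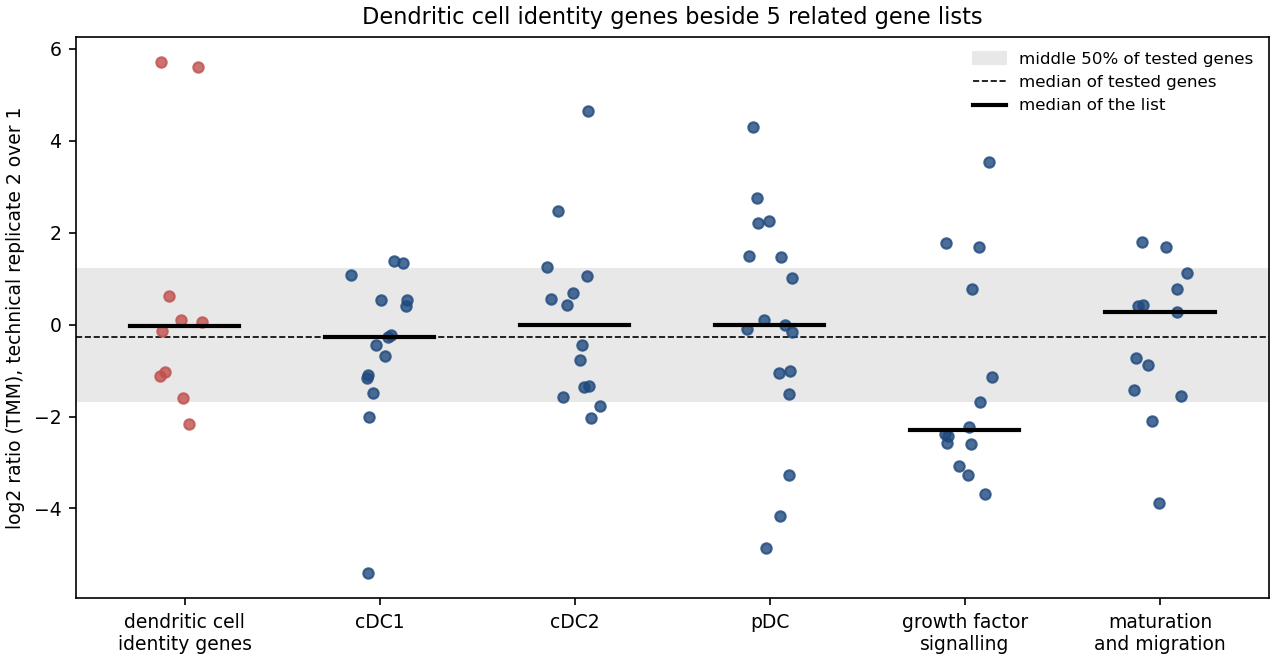
TMM log2 ratio of technical replicate 2 over 1 of each tested gene, with the 10 dendritic cell identity genes beside 5 related lists; short bars are list medians, the dashed line is the median of tested genes (-0.27) and the grey band runs between their quartiles, -1.66 and 1.22. Batf3 and Bst2 stand above the other points, and the growth factor list has the lowest median, -2.30.

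Markers of other spleen cells moved between the libraries as well, and their part in the results above was not tested. Beside each count under TMM stand the same backgrounds, 28% higher and 32.6% lower. Of 8 B cell genes 3 were higher and 5 lower, with a sum of 1290.21 TPM in replicate 2 and 3823.07 TPM in replicate 1. Of 8 red pulp macrophage genes 2 were higher and 4 lower (215.49 TPM in replicate 2 and 1175.29 TPM in replicate 1), and of 4 marginal zone macrophage genes 1 was higher and 2 lower (90.36 TPM in replicate 2 and 185.72 TPM in replicate 1). Of 7 tested monocyte and neutrophil genes 0 were higher and 3 lower, and the list made up 210.92 TPM in replicate 2, against 4148.21 TPM in replicate 1. Under all 3 scalings (backgrounds 14.6% and 30.5%), higher and lower counts were 3 and 4 for B cell and 0 and 4 for red pulp macrophage genes. They were 1 and 2 for marginal zone macrophage and 0 and 2 for monocyte and neutrophil genes. With the GC trend removed (27.6% and 24.7%), they were 4 and 3 for B cell and 2 and 2 for red pulp macrophage genes. They were 1 and 1 for marginal zone macrophage and 1 and 2 for monocyte and neutrophil genes.

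Of 8 T cell genes 1 was higher and 4 lower, with 153.84 TPM in replicate 2 and 811.24 TPM in replicate 1, and Trac was at 0 counts in replicate 2. Of 6 NK cell genes 1 was higher and 4 lower (51.49 TPM in replicate 2 and 221.6 TPM in replicate 1), and of 6 endothelial genes 1 was higher and 1 lower (61.22 TPM in replicate 2 and 203.96 TPM in replicate 1). The 8 erythroid genes were called higher in 8 of 8 cases. Under all 3 scalings (backgrounds 14.6% and 30.5%), higher and lower counts were 0 and 4 for T cell, 0 and 3 for NK cell and 0 and 1 for endothelial genes. With the GC trend removed (27.6% and 24.7%), they were 0 and 4, 1 and 4, and 2 and 1. Of the erythroid genes 6 were higher under all 3 scalings and 7 with the GC trend removed.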

How the data were processed

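Polyadenylated RNA of 1 mouse spleen was measured in 2 libraries. Per the file headers and the notes that accompany the tables, reads were aligned by the authors to the transcriptome of mm10 with GENCODE M4; the aligner and quantifier are not given in the sources used here. The deposited expected count of a gene or transcript divides shared reads. The deposited TPM is scaled for length and to the same sum in each library. The deposited IsoPct is a percent of the gene's TPM. Lengths are in bases, and posterior SDs and TPM intervals were deposited as well; no level of those intervals is stated.

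Expected counts were rounded. The 69691 rows per gene table include 43346 Ensembl rows, 42462 with a symbol; the other rows, holding 2.10e-04% of counts for replicate 2 and 1.09e-05% for replicate 1, stayed out. The 12467 genes tested had 50 counts or more in all and averaged 1 TPM or more. TMM scaling used edgeR 4.0.16 under R version 4.3.3. Intervals of ratios (95%, Clopper-Pearson, exact) are conditional on the summed count; a count of 0 was set to 3. TPM intervals are exact Poisson intervals. Pairs of genes have exact conditional intervals; the share over all pairs of tested genes used normal-approximation intervals, which gave the same call in 45 of the 45 pairs. There is no p-value. Coordinates, overlaps and GC content came from GENCODE M21 (GRCm38; 101510 of 103639 transcripts matched), promoters from RefSeq. DESeq2 1.42.0 size factors, total counts, filters, thresholds, a 99% interval, GC trend removal and TPM ratios were alternatives. Other steps used Python 3.11.15 (pandas 2.3.3, numpy 2.4.6, scipy 1.17.1) with figures from matplotlib 3.10.9.

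The 10 genes and the lists were chosen with earlier results of these data known. Of each list, the text names in each direction the 2 called genes, and the 2 uncalled genes, with the highest mean TPM.

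The deposited posterior SD of the gene count was 0 for 10 of the 10 genes in replicate 2 and for 8 in replicate 1, and at most 1.92. The labels and headers state no strandedness, so it is not known whether reads of a gene and an antisense partner were told apart. Gm26597, antisense to Flt3, held 0 counts in replicate 2 and 1 in replicate 1. Tcf4 has no promoter shown.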

Additional observations from a re-analysis of the deposited data

Results flagged for a closer look

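Rows with a numeric identifier, which name no gene, entered no comparison. They held 8 expected counts in technical replicate 2 and 3 in technical replicate 1, and are listed because 8 is above the limit of 3 counts that a count of 0 allows.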

How the results depend on the processing

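The calls of Batf3 and Bst2 (higher) and of Clec9a, Itgax and Cd209a (lower) were the same for 10 of 10 genes with DESeq2 size factors and with a 99% interval. Under total counts, 9 genes were called, 7 of them lower, and the ratios turned to -0.64 for Flt3, -1.21 for Zbtb46 and -1.17 for Irf8. An interval beyond 2-fold left 3 calls, 1 of them lower, without Itgax and Cd209a, and one beyond 1-fold gave 7, with Flt3 and Siglech added. With the GC trend removed, 4 were higher, and Irf8 and Tcf4 turned to -1.26 and 1.18. With no filter, Zbtb46 and Irf8 turned to -0.23 and -0.19, and with at least 10 counts to -0.11 and -0.070; under both filters 6 genes were called, with Siglech lower at -1.32 and -1.20. As TPM ratios with a pseudocount of 1, Flt3, Zbtb46 and Irf8 turned to -1.69, -2.12 and -2.28, and with 0.1 to -1.79, -2.38 and -2.32; the tested genes had medians of -2.10 and -2.66. At 5 TPM, 6 genes were detected in replicate 2. The share of all tested genes called is not given under DESeq2 or total counts alone, other fold limits, other filters or the 99% interval. Those counts of called members thus stand without a background. For Flt3, Zbtb46, Irf8 and Tcf4 the sign thus rests on scaling, measure, filter or GC treatment; the causes were not tested. Depth limits replicate 2, where Cd209a had 17 counts. The pairs of genes, compared with the GC trend removed and with normal-approximation intervals after the data were seen, gave 30 of 45 in both. With the GC trend removed, the share over all pairs of tested genes is not given. No paired analysis was possible because each side has 1 library.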
